A study of Saccharomyces cerevisiae with 10 samples.

Results

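Peaks of the chromatin protein Swc4 whose summit lay in the last 500 bp of a long protein-coding gene of budding yeast (Saccharomyces cerevisiae) are described here. A nuclear peak was a member when its summit, the position of highest signal, fell in exactly 1 protein-coding gene, that gene spanned at least 1500 bp, and the summit was within 500 bp of its annotated end. By this rule 1003 of the 9414 peaks in the 4 deposited lists were members. They numbered 553 of 4590 peaks in yaf9d, 327 of 2937 in eaf1d, 101 of 1262 in swr1d and 22 of 625 in wild type. The rule used position and no measured value of a peak.

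The peaks came from chromatin immunoprecipitation and sequencing with an antibody against c-Myc, in cells grown in rich medium (YPD) at 30 °C to mid-log phase. Each tested strain carried SWC4-13MYC, that is Swc4 with a Myc tag, and was yaf9d, eaf1d, swr1d or wild type. The d is the usual notation for a deletion, so the control for each mutant here is the wild type with the same tag. There were 2 repeats a group, each list joins both repeats of its group, and a further group, wild type with no tag, was not analysed here. Differences between the lists therefore have no replicate spread and no test, and "member" means only that a peak was called at that place.

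Swc4 is a subunit shared by SWR1, the remodelling complex that puts the histone variant H2A.Z into nucleosomes beside promoters, and by NuA4, an acetyltransferase of histones H4 and H2A. Both complexes also share Yaf9. Eaf1 holds NuA4 together, and Swr1 provides the ATPase of the remodeller. Yeast genes lie close together, and what follows the end of a gene depends on its neighbour. A tandem neighbour, on the same strand, places its promoter just past the end, whereas a convergent neighbour, on the opposite strand, places its own end there.

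The lists differ in length and reach, and their read depth is not given in these sources. The lowest −log10 q was 1.31 in each list, and the shortest nuclear peak was 195 bp in yaf9d, 249 bp in eaf1d, 252 bp in swr1d and 351 bp in wild type. Each mutant list had 0 peaks over the gene deleted in its strain. That checks little, since YAF9 had none in any list and EAF1 had peaks only in yaf9d. SWR1 was overlapped by 2 peaks in yaf9d, 1 in eaf1d and 1 in wild type.

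The ends of long genes held more Swc4 summits than their length predicts in the 3 mutant lists. The last 500 bp made up 19.7% of the bases that lie in exactly 1 gene of at least 1500 bp, over 2248 such genes. In yaf9d they held 553 of the 2050 summits in these genes, or 27.0% (exact Clopper-Pearson 95% interval 25.1–29.0), where length alone gives 403. In eaf1d it was 327 of 1223 (26.7%, 24.3–29.3) where length gives 241, and in swr1d 101 of 311 (32.5%, 27.3–38.0) where length gives 61.2. In wild type 22 of 98 summits (22.4%, 14.6–32.0) were at gene ends where length gives 19.3, and the interval includes the expected share. All intervals here treat peaks as independent and cover counting error only.

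As a ratio of observed to expected share, that is 1.37 in yaf9d (interval 1.27–1.47), 1.36 in eaf1d (1.23–1.49), 1.65 in swr1d (1.39–1.93) and 1.14 in wild type (0.744–1.63). An excess over length was not particular to gene ends. For the first 500 bp the ratio was 1.56 in yaf9d (1.46–1.66), 1.99 in eaf1d (1.85–2.14), 1.73 in swr1d (1.46–2.01) and 3.53 in wild type (3.01–4.0). In wild type the first 500 bp of genes held 67 of the 98 summits, which leaves a smaller share for the rest of the gene. Against the interior alone, with the first 500 bp left out of both counts, the ratio was 1.58 in yaf9d (1.48–1.69), 1.78 in eaf1d (1.64–1.93), 2.0 in swr1d (1.71–2.29) and 2.91 in wild type (2.13–3.52). The interior itself was below its expected share in each list, at 0.703 in yaf9d, 0.569 in eaf1d, 0.559 in swr1d and 0.151 in wild type. A window of 250 bp moved the wild-type ratio to 2.08. Limited to a fold of at least 2, it came to 2.54 in swr1d, on 9 members, and 0 in wild type, which then had 0 of 10 summits there.

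**Figure D1:**
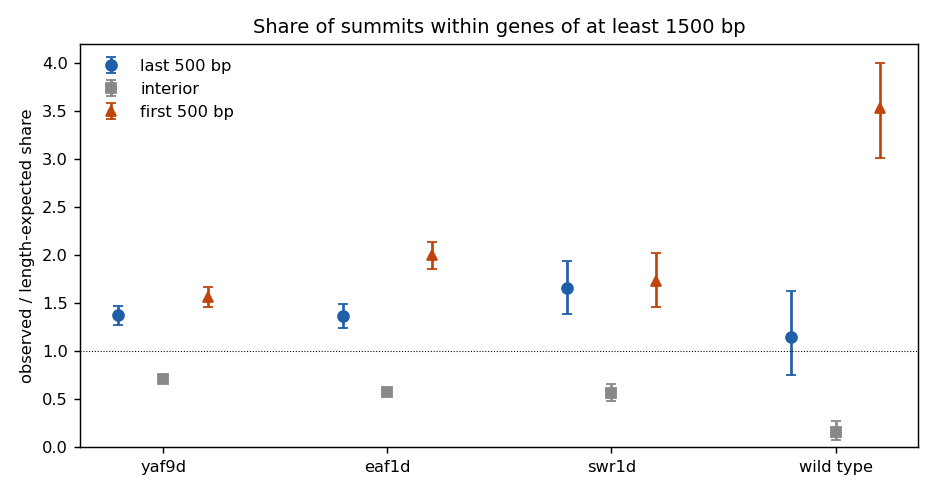
Share of summits in the last 500 bp, the interior and the first 500 bp of genes of at least 1500 bp, divided by the share expected from length, for each list; bars are exact 95% intervals. The last 500 bp lie above 1 in the 3 mutants (1.37, 1.36 and 1.65), the wild-type interval (0.744 to 1.63) includes 1, and the interior lies below 1 throughout. The first 500 bp lie above 1 in every list (1.56 in yaf9d, 1.99 in eaf1d, 1.73 in swr1d and 3.53 in wild type).

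Counted over all nuclear peaks, the share of gene ends differed between lists of different length. Members made up 12.2% of the nuclear peaks in yaf9d (interval 11.3–13.2), 11.3% in eaf1d (10.1–12.5), 8.03% in swr1d (6.59–9.67) and 3.52% in wild type (2.22–5.28). The same windows are 9.28% of the nuclear length. Relative to that length the yaf9d and eaf1d shares were higher (ratios 1.32 and 1.22), the swr1d interval included it (0.865), and wild type was lower (0.379). Among the 625 most significant peaks of each list the order changed, with 25 members (4.0%, 2.61–5.85) in yaf9d, 48 (7.68%, 5.72–10.1) in eaf1d, 20 (3.2%, 1.97–4.9) in swr1d and 22 (3.52%) in wild type.

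Within the window the summits were spread unevenly. The stretch from 100 to 200 bp before the annotated end held 169 of the 553 yaf9d members (30.6%, interval 26.7–34.6), 105 of the 327 eaf1d members (32.1%, 27.1–37.5), 32 of the 101 swr1d members (31.7%, 22.8–41.7) and 16 of the 22 wild-type members (72.7%, 49.8–89.3). These 100 bp are 1 in 5 of the bases. From 200 to 300 bp before the end the share was also raised in yaf9d (26.2%, 22.6–30.1) and eaf1d (25.4%, 20.8–30.5). The last 100 bp held fewer in yaf9d (9.76%, 7.42–12.5) and eaf1d (12.2%, 8.88–16.3). In swr1d there was a further rise from 400 to 500 bp before the end, with 26 members (25.7%, 17.6–35.4). The median distance to the end was 237 bp in yaf9d, 222 bp in eaf1d, 241 bp in swr1d and 136.5 bp in wild type.

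Summits thinned out towards the annotated end and were fewer still just past it. Per base, and relative to the mean over the nuclear genome of the same list, summits stood at 2.02 in yaf9d, 1.95 in eaf1d, 1.37 in swr1d and 1.38 in wild type from 100 to 200 bp inside the end. In the last 100 bp inside the end they stood at 0.64 in yaf9d, 0.74 in eaf1d, 0.64 in swr1d and 0.26 in wild type. In the first 100 bp past the end they stood at 0.13 in yaf9d, 0.13 in eaf1d, 0.31 in swr1d and 0.088 in wild type. Of the annotated spans 96.4% are multiples of 3, so the end was taken as that of the reading frame, not of the transcript. The spans run from first to last base on the chromosome, so any intron counts towards the 1500 bp. Base composition and the ease of mapping reads were not compared between these stretches.

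**Figure D2:**
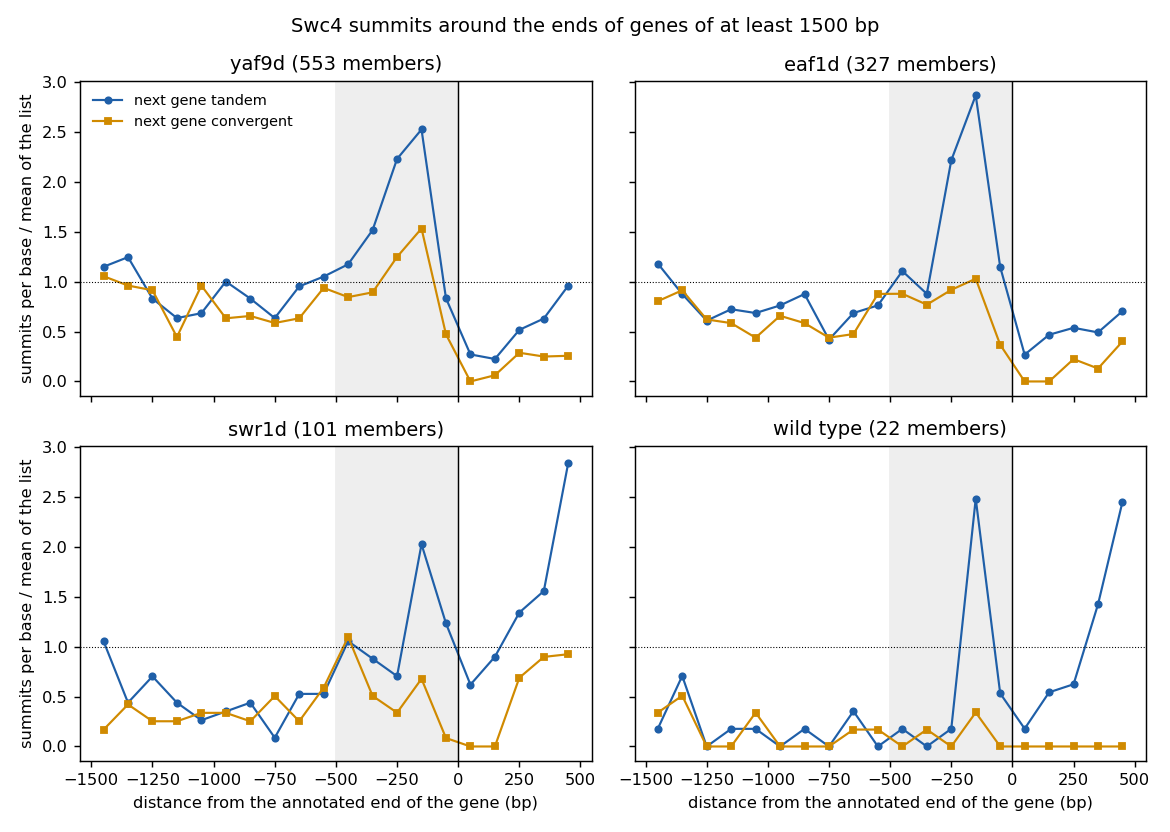
Swc4 summits per base around the annotated end of genes of at least 1500 bp in steps of 100 bp, relative to the mean of each list, for genes with a tandem or a convergent next gene; the last 500 bp are shaded and the line at 0 is the annotated end. In each list tandem genes peak from 100 to 200 bp before the end, at 2.53 in yaf9d, 2.87 in eaf1d, 2.03 in swr1d and 2.48 in wild type, and from 400 to 500 bp past the end they stand at 2.84 in swr1d and 2.45 in wild type.

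The next gene was tandem more often than its share of genes in every list. Among all 2248 genes 1138 (50.6%) had a convergent next gene, 1092 (48.6%) a tandem one and 18 none, and the bases of the windows divide alike. The next gene was convergent for 212 of 553 members in yaf9d (38.3%, interval 34.3–42.5), 108 of 327 in eaf1d (33.0%, 28.0–38.4), 32 of 101 in swr1d (31.7%, 22.8–41.7) and 3 of 22 in wild type (13.6%, 2.91–34.9). Each interval lies below 50.6%. Under some alternatives it included 50.6%. In yaf9d it was 35.2–51.1% at a fold of at least 2 and 21.1–61.3% in lists of equal length. In eaf1d it was 25.8–54.7% in lists of equal length. In wild type it was 7.79–55.1% with the middle of the peak in place of the summit. In the other alternatives computed it lay below the share of bases. The next gene was tandem for 338 members in yaf9d, 215 in eaf1d, 67 in swr1d and 19 in wild type. With a window of 250 bp the convergent share was 19.6% in swr1d, and with genes of at least 1000 bp it was 27.3% in wild type.

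**Figure D3:**
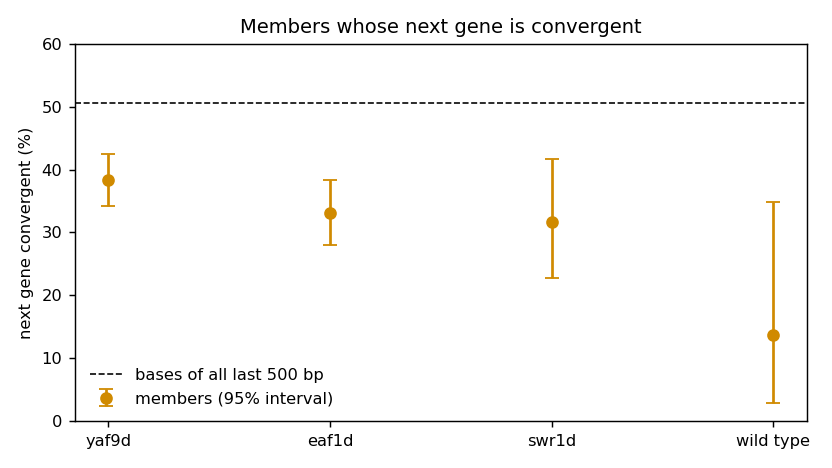
Percent of members whose next protein-coding gene is convergent in each list, with exact 95% intervals; the dashed line at 50.6% is the share of bases in the windows of all genes of at least 1500 bp. All 4 points lie below the line, at 38.3%, 33.0%, 31.7% and 13.6%.

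The 100-bp step nearest the top of the rise shows the same contrast. In eaf1d, tandem genes had 75 summits from 100 to 200 bp before the end (2.87 times the mean of the list per base) and convergent genes had 28 (1.03 times). In yaf9d it was 103 (2.53) at tandem and 65 (1.53) at convergent genes, in swr1d 23 (2.03) and 8 (0.678), and in wild type 14 (2.48) and 2 (0.341). At convergent genes in swr1d the highest step of the window was instead from 400 to 500 bp before the end, at 1.10. Nearness to the next gene's start was also compared. A summit lay within 500 bp upstream of the start of the tandem next gene for 20.1% of tandem members in yaf9d, 24.7% in eaf1d and 23.9% in swr1d, against 22.4% of the bases in tandem windows. In wild type it was 9 of 19, or 47.4%. Without all bases within 500 bp upstream of a gene start, the convergent share was 43.7% in yaf9d, 39.4% in eaf1d, 37.6% in swr1d and 23.1% in wild type, where the bases left give 56.8%.

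Some member peaks ran past the end of the gene. They did so for 139 of 553 members (25.1%) in yaf9d, 122 of 327 (37.3%) in eaf1d, 27 of 101 (26.7%) in swr1d and 16 of 22 (72.7%) in wild type. Those that reached into the next gene numbered 3 in yaf9d, 16 in eaf1d, 2 in swr1d and 8 in wild type. The wild-type ones were at TFC1, NPP1, RSA4, CAF130, PRP19, INA1, MDM1 and MLS1. The lists as wholes differ in width: the median was 326 bp for members and 366 bp for all nuclear peaks in yaf9d, 419 and 449.5 bp in eaf1d, 409 and 412 bp in swr1d, and 585 and 558 bp in wild type. The spanning shares therefore do not compare the genotypes at equal peak width. The widest member was 2433 bp in yaf9d, 2490 bp in eaf1d, 1627 bp in swr1d and 1550 bp in wild type. Such peaks have only their summit placed in the window.

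The strength of members was set beside that of other peaks, in long genes and elsewhere. The fold is the authors' ratio of signal at the summit to local background and serves to rank peaks within a list. The median fold of members was 1.85 in yaf9d, where the other nuclear peaks had 1.88, and 1.82 in eaf1d, where the others had 1.85. It was 1.47 in swr1d, where the others had 1.74, and 1.42 in wild type, where the others had 1.68. Summits in the interior and in the first 500 bp of long genes had medians of 1.83 and 1.84 in yaf9d, 1.66 and 1.88 in eaf1d, 1.48 and 1.46 in swr1d, and 1.28 and 1.58 in wild type. The highest fold of a member was 3.79 in yaf9d, 4.64 in eaf1d, 2.82 in swr1d and 1.78 in wild type. Members of fold at least 2 numbered 158 (28.6%) in yaf9d, 94 (28.7%) in eaf1d, 9 (8.91%) in swr1d and 0 in wild type.

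**Figure D4:**
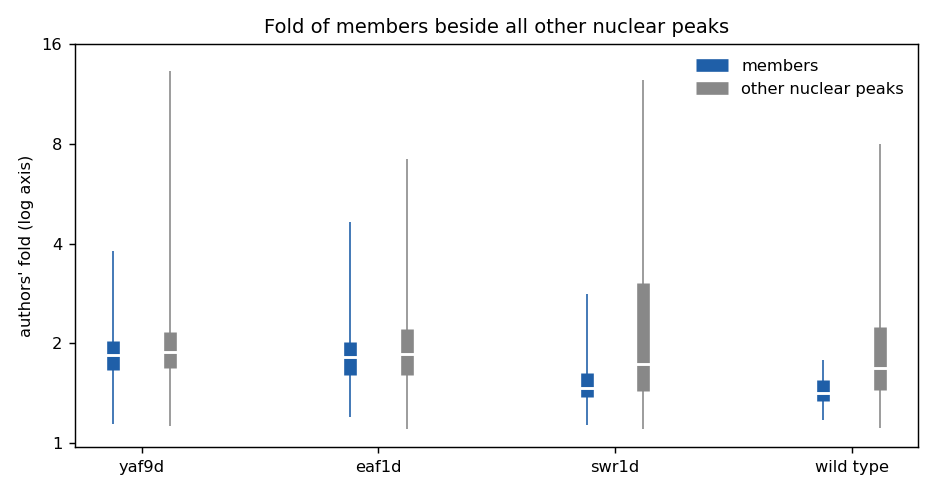
Fold of member peaks and of all other nuclear peaks in each list, on a log axis; thin lines run from the lowest to the highest value, thick bars from the lower to the upper quartile, and white marks are medians. The medians of members and others are 1.85 and 1.88 in yaf9d, and the highest members (3.79, 4.64, 2.82 and 1.78) lie below the highest other peaks in each list.

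When each list was divided into 4 equal parts by −log10 q, the most significant part held fewer summits in long genes, and fewer members, than each other part. It held 90 members among 260 such summits in yaf9d (34.6%, interval 28.8–40.7), 56 among 200 in eaf1d (28%, 21.9–34.8), 1 among 4 in swr1d and 0 among 5 in wild type. The least significant part held 141 among 591 in yaf9d (23.9%, 20.5–27.5), 77 among 373 in eaf1d (20.6%, 16.6–25.1), 42 among 138 in swr1d (30.4%, 22.9–38.8) and 11 among 39 in wild type (28.2%, 15–44.9). Only in yaf9d did the intervals of these parts not overlap. The highest rank of a member was 11, at PMA1, the plasma membrane proton pump, in eaf1d.

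Of the 2248 long genes, 24.6% were member genes in yaf9d (552 genes, since NAB6 had 2 members), 14.5% in eaf1d (327), 4.49% in swr1d (101) and 0.979% in wild type (22). In any list 632 genes (28.1%) were members, 388 of them with a tandem next gene and 240 with a convergent one. The yaf9d and eaf1d lists shared 264 member genes, 47.8% of those in yaf9d and 80.7% of those in eaf1d, where independent lists would share 80.3. The yaf9d and swr1d lists shared 82, 14.9% of yaf9d and 81.2% of swr1d (24.8 if independent). The eaf1d and swr1d lists shared 71, 21.7% of eaf1d and 70.3% of swr1d (14.7 if independent). The sources used here do not say whether the lists were called against the same control.

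Shared genes carried their summit at nearly the same base. In genes shared by yaf9d and eaf1d the summits were a median of 11.5 bp apart and within 50 bp in 222 of 264. For yaf9d and swr1d it was 14 bp and 67 of 82, and for eaf1d and swr1d 14 bp and 59 of 71. Of the 22 wild-type member genes, yaf9d shared 16 (72.7%, interval 49.8–89.3), eaf1d 10 (45.5%, 24.4–67.8) and swr1d 8 (36.4%, 17.2–59.3). These are 2.90%, 3.06% and 7.92% of the member genes of the 3 mutants. In lists of equal length the share of wild-type genes was 18.2% in yaf9d and 18.2% in eaf1d, and 22.7% in swr1d. With the middle of the peak in place of the summit it was 20% in eaf1d.

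A summit at the end in all 4 lists occurred in 5 genes (0.222% of long genes), all with a tandem next gene. They are PTK1, GTB1, EFT1, EFT2 and UBR2, and in each of them the wild-type fold was the lowest of the 4. Since each fold is over the background of its own list, that order is not a measured change. Their summits varied by 13 to 38 bp between lists.

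PTK1, a protein kinase gene that acts on polyamine transport, had the strongest member in yaf9d and swr1d. Its peak on chromosome XI lay at 67757–70189 in yaf9d (fold 3.79), 67812–68885 in eaf1d (2.97), 67799–69425 in swr1d (2.82) and 67875–68548 in wild type (1.44). In yaf9d the peak was longer than the gene, which spans 1989 bp, so it was not confined to the gene end. The summit was 104 bp before the end in yaf9d, 116 bp in eaf1d, 117 bp in swr1d and 142 bp in wild type. MNN4, a gene of cell wall mannan modification, lies 765 bp past the end and was reached by none of the 4 peaks, which ran 475 bp past it in yaf9d, 420 bp in eaf1d, 433 bp in swr1d and 357 bp in wild type.

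GTB1, the regulatory subunit of glucosidase II in the endoplasmic reticulum, had a peak on chromosome IV in every list. It lay at 909160–909554 in yaf9d (fold 2.24), 909151–909540 in eaf1d (2.36), 909193–909648 in swr1d (2.01) and 909224–909607 in wild type (1.55). UBR2, a ubiquitin ligase that acts on the proteasome gene activator Rpn4, had its summit nearest the end of the 5 genes, at 67 bp in yaf9d, 65 bp in eaf1d, 43 bp in swr1d and 67 bp in wild type. Its folds were 2.07 in yaf9d, 1.96 in eaf1d, 1.41 in swr1d and 1.35 in wild type.

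EFT1 and EFT2 both encode translation elongation factor 2, and their copies are nearly identical, so reads cannot be assigned to either with certainty. At EFT2 (chromosome IV) the fold was 2.13 in yaf9d, 1.59 in eaf1d, 1.5 in swr1d and 1.39 in wild type, with summits 152 to 165 bp before the end. At EFT1 (chromosome XV) it was 2.05 in yaf9d, 1.58 in eaf1d, 1.38 in swr1d and 1.35 in wild type, with summits 155 to 172 bp before the end. The order of the lists is the same at both copies, but the copies can share reads and are not independent.

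The other wild-type members had folds of at most 1.78. RSA4, a ribosome assembly gene, led them with a fold of 1.78 and also had a member in yaf9d (2.13). NPP1, a nucleotide pyrophosphatase gene, had 2.27 in eaf1d and 1.75 in wild type, and PRP19, a splicing factor gene, had 1.85 in yaf9d, 1.33 in swr1d and 1.74 in wild type. FAS2, a subunit of fatty acid synthase, had 1.75 in yaf9d, 1.76 in eaf1d and 1.36 in wild type. At MLS1, the malate synthase gene, the place differed between lists, with the summit 284 bp before the end in yaf9d, 222 bp in eaf1d and 125 bp in wild type. TKL2, a transketolase gene, LPD1, dihydrolipoamide dehydrogenase, and INA1 were member genes in wild type alone, yet a yaf9d peak with its summit elsewhere overlapped the window of each. A yaf9d peak overlapped the windows of 21 of the 22 wild-type genes, a swr1d peak those of 13 and an eaf1d peak those of 12.

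**Figure D5:**
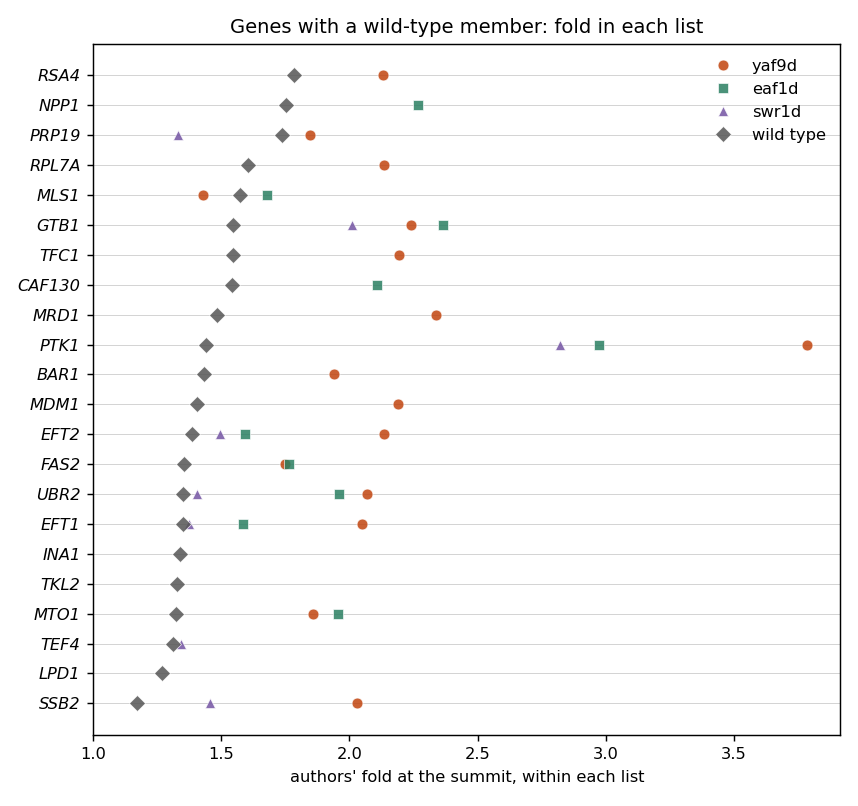
Authors' fold at the summit in each list for the 22 genes with a wild-type member, ordered by the wild-type fold; a missing mark means no summit in the last 500 bp in that list. PTK1 stands out in the mutants at 3.79, 2.97 and 2.82, while all wild-type values lie between 1.17 and 1.78.

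Overlap with a wild-type peak was no more common at members than elsewhere. A wild-type peak overlapped 21 of the 553 yaf9d members (3.8%), 13 of the 327 in eaf1d (3.98%) and 9 of the 101 in swr1d (8.91%). Of the other peaks with a summit in a long gene it overlapped 88 of 1497 in yaf9d (5.88%), 67 of 896 in eaf1d (7.48%) and 23 of 210 in swr1d (11%). Of all nuclear peaks it overlapped 15.3% in yaf9d, 16.7% in eaf1d and 33% in swr1d. The 3 mutants without wild type shared 61 member genes. A further 195 were member genes in yaf9d and eaf1d, 266 in yaf9d alone, 56 in eaf1d alone and 13 in swr1d alone.

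Among genes with members in the 3 mutants only, ARN1, a siderophore iron transporter gene near the left end of chromosome VIII, had folds of 3.07 in yaf9d, 2.04 in eaf1d and 2.04 in swr1d. Its summit lay far from the end, at 450 bp in yaf9d, 456 bp in eaf1d and 458 bp in swr1d. UPC2, a transcription factor of sterol synthesis, had 2.69 in yaf9d, 2.14 in eaf1d and 2.38 in swr1d, with the summit 87 bp before the end in yaf9d, 114 bp in eaf1d and 115 bp in swr1d. At INP53, a phosphoinositide phosphatase gene, the called summit was not at a common place, lying 111 bp before the end in yaf9d, 97 bp in eaf1d and 497 bp in swr1d. YDR444W, whose product is little studied, had 2.56 in yaf9d, 1.83 in eaf1d and 2.08 in swr1d.

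SSA1, a cytosolic Hsp70 chaperone gene, had a summit close to its end, 73 bp before it in yaf9d, 80 bp in eaf1d and 81 bp in swr1d. Its fold was 1.94 in yaf9d, 3.32 in eaf1d and 2.01 in swr1d. In eaf1d the peak ran from 139056 to 141442 on chromosome I. That is longer than the gene, which spans 1929 bp, so the peak was not confined to the gene end. BDF1, a bromodomain protein that associates with TFIID and with SWR1, had 1.67 in yaf9d, 2.64 in eaf1d and 1.44 in swr1d.

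HXT7, a high-affinity glucose transporter gene, had the highest fold of all members, 4.64 at 1154071–1154509 of chromosome IV, 79 bp before its end, and 0 peaks over that window in the other lists. HXT6 is a near-identical copy of it, so the copy is uncertain. TSL1, a subunit of trehalose synthase, had 2.02 in yaf9d and 3.46 in eaf1d. GPH1, glycogen phosphorylase, had 2.71 in eaf1d and 0 peaks over its window elsewhere. SNG1, a gene of drug resistance, had 2.43 in yaf9d and 2.94 in eaf1d.

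The strongest members found in yaf9d alone were FOB1, which blocks replication forks in the rDNA, with a fold of 3.18 (chromosome IV, 677439–677744), and AKR1, a palmitoyltransferase gene, with 2.96 (chromosome IV, 996196–996497). Neither window had a peak in the other lists. FUR4, the uracil permease gene, had 2.76 in yaf9d and 2.14 in eaf1d.

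Gene groups were compared with all long genes by their counts alone, with no test. The groups were not matched for the next gene, which was tandem for 48.6% of all long genes. It was tandem for 17 of 23 cell wall genes but for 8 of 33 genes of chromatin remodelling and NuA4. In yaf9d 30.9% of all long genes with a tandem next gene were member genes. Of 25 chaperone genes, 16 were member genes in yaf9d (64.0%, interval 42.5–82.0, against 24.6% of all long genes). In eaf1d 6 were (24%, 9.36–45.1, against 14.5%), in swr1d 5 (20%, 6.83–40.7, against 4.49%) and in wild type 1 (4.0%, 0.101–20.4, against 0.979%). CCT5, a subunit of the cytosolic chaperonin, had the highest fold of the group in yaf9d, 2.59. The Hsp70 genes SSA1, SSA2, SSA3, SSA4, SSB1 and SSB2 all had a member in yaf9d, with folds of 1.94, 1.98, 2.18, 1.93, 2.06 and 2.03. SSB2, whose product works at the ribosome, was the chaperone gene with a wild-type member (fold 1.17). The Hsp90 genes HSC82 (2.12) and HSP82 (2.0) had a member in yaf9d alone. Near-identical copies, among them SSA1 with SSA2 and SSB1 with SSB2, can share reads.

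Genes listed as long genes of abundant mRNA in rich medium had members at 20 of 38 in yaf9d (52.6%, interval 35.8–69.0), 10 in eaf1d (26.3%, 13.4–43.1), 6 in swr1d (15.8%, 6.02–31.3) and 4 in wild type (10.5%, 2.94–24.8). All long genes gave 24.6%, 14.5%, 4.49% and 0.979%. The share was thus higher in each list, but the eaf1d interval includes 14.5%. The 4 in wild type were EFT1 and EFT2, which can share reads, FAS2 and SSB2. Transcript levels were not measured here, so the abundance of the listed genes, among them TRA1, RNR1 and SEC23, was not checked. The list overlaps those of chaperones and translation factors. The median fold of its members in yaf9d was 1.84, and that of all yaf9d members was 1.85.

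Translation factor genes had members at 11 of 23 in yaf9d (47.8%, interval 26.8–69.4), 4 in eaf1d (17.4%, 4.95–38.8), 3 in swr1d (13.0%, 2.78–33.6) and 2 in wild type (8.70%, 1.07–28.0). The last are EFT1 and EFT2, which can share reads, and the wild-type member TEF4 was not among the 23 listed genes. The eaf1d and swr1d intervals include the shares of all long genes, 14.5% and 4.49%. GCD11, the gamma subunit of initiation factor 2, had the highest fold of the group, 2.37 in yaf9d. Of 17 aminoacyl-tRNA synthetase genes, which charge tRNAs, 8 had a member in yaf9d (47.1%, interval 23.0–72.2, which includes 24.6%), 2 in eaf1d and 0 in swr1d and wild type. ALA1, alanyl-tRNA synthetase, led them with 2.28 in yaf9d. RNA polymerase genes of large subunits had members at 3 of 6 in yaf9d, namely RPB2 (2.56), RET1 (1.98) and RPO21 (1.68), and in swr1d at RPA135 (1.71). On 6 genes the yaf9d interval was 11.8–88.2%, which includes 24.6%.

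Glycolysis and storage carbohydrate genes had members at 7 of 17 in yaf9d (41.2%), 7 in eaf1d (41.2%), 3 in swr1d (17.6%) and 0 in wild type. ALD6 and ALD4, aldehyde dehydrogenase genes, had 2.39 and 2.37 in yaf9d alone, and CDC19, pyruvate kinase, had 1.21 in eaf1d and 1.13 in swr1d. Cell wall genes with the proton pump had 9 of 23 in yaf9d (39.1%, interval 19.7–61.5, which includes 24.6%), 7 in eaf1d (30.4%, 13.2–52.9, which includes 14.5%) and 0 in swr1d and wild type. GAS3, a glucanosyltransferase gene, led them with 2.53 in yaf9d, and PMA1 had 2.0 in yaf9d and 2.09 in eaf1d. The flocculin genes FLO1, FLO9, FLO10 and FLO11 had members in yaf9d and eaf1d, of fold 1.33 to 2.03, and repeats within and between these genes make their positions uncertain.

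The other groups had 25.6% or less in yaf9d. Nutrient transporters had 10 of 39 in yaf9d (25.6%, interval 13.0–42.1, which includes 24.6%), 10 in eaf1d (25.6%, 13.0–42.1, which includes 14.5%), 1 in swr1d and 0 in wild type. Ribosome assembly genes had 9 of 37 in yaf9d (24.3%) and 0 in eaf1d, swr1d and wild type, with MAK21 at 2.41 as the highest. Genes of chromatin remodelling and NuA4 had 7 of 33 in yaf9d (21.2%), 4 in eaf1d, 2 in swr1d and 0 in wild type. MOT1, which removes TBP from DNA, and RSC9, of the RSC remodeller, had a member in each mutant, with folds of 1.90 and 1.74 in yaf9d, 1.97 and 1.91 in eaf1d, and 1.47 and 1.58 in swr1d. EAF1 itself had a member of fold 1.5 in yaf9d. Lipid and sterol genes had 2 of 21 in yaf9d, 3 in eaf1d, 1 in swr1d and 1 in wild type. Helicase-like genes of chromosome ends had 2 of 20 in yaf9d and eaf1d, 1 in swr1d and 0 in wild type, and their copies share sequence.

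In yaf9d and eaf1d, genes with a member had a summit elsewhere in the gene more often than other long genes. Of the 552 yaf9d member genes 325 (58.9%, interval 54.6–63.0) had a further summit before the last 500 bp, against 44.8% (42.4–47.2) of the 1696 other long genes. It was 43.7% (38.3–49.3) against 32.7% (30.6–34.8) in eaf1d, 15.8% (9.33–24.4) against 8.20% (7.07–9.44) in swr1d, and 13.6% (2.91–34.9) against 3.28% (2.58–4.11) in wild type. In swr1d and wild type these intervals overlap.

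Among 222 convergent pairs of long genes, both genes of a pair had a member in 9 pairs in yaf9d, 5 in eaf1d and 0 in swr1d and wild type. Pairs with a member in 1 gene numbered 57 in yaf9d, 31 in eaf1d, 10 in swr1d and 1 in wild type. Of all 1138 long genes with a convergent next gene, 18.6% had a member in yaf9d and 9.49% in eaf1d. Whether members fell in both genes of a pair more often than these shares give was not tested. The facing genes HSP60, a mitochondrial chaperonin, and GSY2, glycogen synthase, both had a member in yaf9d (folds 2.35 and 1.83) and in eaf1d (2.62 and 2.53). TSL1 and ARG81, a regulator of arginine genes, did so too, with 2.02 and 2.16 in yaf9d and 3.46 and 2.19 in eaf1d. RPG1, a subunit of initiation factor 3, faces ECM33, a cell wall gene, and they had 1.78 and 1.59 in yaf9d and 2.0 and 2.05 in eaf1d. GAS3 and SKY1, a kinase gene, formed such a pair in yaf9d alone (2.53 and 2.37).

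Members near other annotated features were counted. A tRNA, snRNA, snoRNA or rRNA gene lay within 500 bp of the summit for 8 members in yaf9d, 5 in eaf1d, 2 in swr1d and 1 in wild type, the last at LPD1. Without such bases, members were 545 of 2037 summits in long genes in yaf9d, 322 of 1212 in eaf1d, 99 of 309 in swr1d and 21 of 96 in wild type. In each list members were a larger share of the summits so left out than of all summits in long genes, on small counts. The outermost 20 kb of the chromosomes held 14 members in yaf9d, 16 in eaf1d, 5 in swr1d and 0 in wild type. Without these 20 kb, members were 539 of 1999 summits in long genes in yaf9d, 311 of 1181 in eaf1d, 96 of 302 in swr1d and 22 of 96 in wild type. Members were found on all 16 chromosomes in each mutant and on 12 in wild type. The summits nearest the limit of 500 bp lay at 499 bp in STV1 (fold 1.78) and 501 bp in SPT20 (1.4) in yaf9d, at 499 bp in LYP1 (1.32) and 500 bp in ABF1 (1.92) in eaf1d, at 499 bp in SGV1 (1.32) and 500 bp in RIM15 (1.52) in swr1d, and at 479 bp in TEF4 (1.31) and 523 bp in ILV3 (1.17) in wild type, the first of each pair being a member.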

How the data were processed

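The submitters' processing notes name fastp 0.21.0, BWA 0.7.15-r1140, SAMtools 1.4 and MACS2, with no role or settings. Per the labels, each list integrates both repeats of its group. The genome build, the control and the read depth are not given in these sources. Each peak carries the authors' fold (a ratio of summit signal to local background) and −log10 q. The deposited score, 10 times −log10 q without decimals, and 4 columns of −log10 p were not used.

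Summits were set against the gene table (assembly R64, 6002 nuclear protein-coding genes), with strand read from the W or C of the locus tag. To check the build, a summit was sought within 60 bp of the middle of each of 275 tRNA genes and was found for 114 in yaf9d, 76 in eaf1d, 112 in swr1d and 34 in wild type, and for 0 to 13 when shifted by 200 to 1000 bp. The expected share is that of bases in exactly 1 protein-coding gene, of at least 1500 bp. The next gene is the nearest protein-coding gene past the annotated end. Python 3.11.15 and SciPy 1.17.1 gave exact 95% intervals. The alternatives changed window, gene length, peak strength, list length and the bases counted.

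Members and gene lists were chosen with earlier results of these data known. Named genes were, by rule, the 8 members of highest fold per list, the genes in all 4 lists, the highest 4 per mutant without a wild-type member, up to 4 of each of the 12 gene lists and those nearest the 500 bp limit. Any other gene named, among them the remaining wild-type members, the convergent pairs, NAB6 and further Hsp70, Hsp90 and flocculin genes, was chosen after its values were seen. Of the listed genes 1 was not in the gene table. The result for 1 named gene is not reported here.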

Additional observations from a re-analysis of the deposited data

Results flagged for a closer look

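Peaks on mitochondrial DNA, which no comparison above uses, numbered 68 of 4590 peaks in yaf9d, 37 of 2937 in eaf1d, 4 of 1262 in swr1d and 0 of 625 in wild type. They stand here because wild type had none. The lists differ in length, and no test of the difference was made. The untagged strain, which would give the level without a tag, was not analysed here.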

How the results depend on the processing

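The 15 results (ratio to length, convergent share and share of nuclear peaks in 4 lists, share of wild-type genes in 3) gave 136 values under up to 13 alternatives each. Of these 113 stayed within the 95% interval of the value reported, 23 did not, and 0 crossed a ratio of 1 that the interval excluded. That last check was made for the ratios only. With the first 500 bp left out the ratio was 1.58 in yaf9d, 1.78 in eaf1d, 2.0 in swr1d and 2.91 in wild type. In lists cut to the 625 most significant peaks it was 1.84 in yaf9d and 2.12 in swr1d. There the convergent share in eaf1d was 39.6% (interval 25.8–54.7), and yaf9d and eaf1d held 18.2% each of the wild-type genes. There members made up 4.0% of peaks in yaf9d, 7.68% in eaf1d and 3.2% in swr1d, a comparison chosen after seeing the data. With the last 250 bp the ratio was 1.58 in eaf1d and 2.08 in wild type, and the convergent share 26.3% in eaf1d and 19.6% in swr1d. With fold of at least 2 the ratio was 2.54 in swr1d and 0 in wild type. The convergent share was then 43.0% in yaf9d (interval 35.2–51.1) and 11.1% in swr1d (0.281–48.2, on 9 members). Without bases upstream of gene starts the convergent share was 43.7% in yaf9d and 39.4% in eaf1d. With the middle of the peak, eaf1d held 20% of the wild-type genes. The cause of these shifts was not tested. With fold of at least 2 wild type had no member, so its convergent share and the shares of its genes could not be computed. No paired analysis was possible because each list joins both repeats of its group, and for the same reason no repeat could be left out. These sources give no read depth, so a gene end without a peak may only be below what a list could detect.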

Other observations

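Shorter long genes had members a little more often. In yaf9d, genes of 1500 bp to under 2000 bp had a member at 28.2% of 922 genes (exact 95% interval 25.3–31.2), those of 2000 bp to under 3000 bp at 22.5% of 799 (19.7–25.6) and longer ones at 21.3% of 527 (17.8–25). From the short class to the long one it was 17.2%, 12.6% and 12.7% in eaf1d, 5.64%, 3.88% and 3.42% in swr1d, and 1.08%, 1.0% and 0.759% in wild type.

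Tandem and convergent next genes were also compared at like distances between the genes, in 5 classes of gap. In yaf9d, eaf1d and swr1d the percent of genes with a member was higher for tandem genes in each class, and in wild type in 3 of the 5. The intervals of the tandem and convergent shares were apart in yaf9d at 300 bp to under 500 bp (33.7% of 404 tandem and 21.9% of 237 convergent genes) and at 500 bp to under 1000 bp (33.8% of 260 and 17.9% of 106). They were apart in eaf1d at 200 bp to under 300 bp (18.3% of 240 tandem and 7.9% of 291 convergent genes) and at 500 bp to under 1000 bp (23.8% of 260 and 9.43% of 106). In all other classes, and in swr1d and wild type throughout, they overlapped. At 1000 bp or more the shares were 25% tandem and 23.5% convergent in yaf9d, and 0.758% and 1.47% in wild type.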
